A study of Mus musculus with 8 samples.

Results

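The nuclear genes of oxidative phosphorylation were described in 8 mouse RNA-seq libraries of brain regions, brain cells, embryonic fibroblasts and an embryonic stem cell line. Members were the protein-coding genes named as subunits of complexes I to V (Ndufa, Ndufb, Ndufc, Ndufs, Ndufv, Sdh, Uqcr, Cox4 to Cox8 and Atp5 symbols), tissue-specific paralogs included. The rule found 80 of the 29713 genes measured: 35 of complex I, 4 of complex II, 8 of complex III, 16 of complex IV with Ndufa4 counted there, 16 of complex V, and Atp5s, a coupling factor counted outside the complexes. Cox4i1, Cyc1 and Ndufab1 fall outside the naming rule and are given separately. Cerebellum, cortex and hippocampus were tissue of strain C57, and neuron and glia were prepared from brain of that strain. MEF stands for mouse embryonic fibroblast, and ICR MEF and OG2 MEF were made from embryos of those strains at day 13.5. The library labelled R1 ESC is given an inner cell mass source and the strain 129X1 x 129S1, and R1 is a single established line. No treatment is named for any group. Age, sex and how the neurons and glia were isolated are not stated in the labels.

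Oxidative phosphorylation passes electrons from NADH through complex I, and from succinate through complex II, to ubiquinone, then through complex III and cytochrome c to complex IV, which reduces oxygen. Complexes I, III and IV pump protons, and complex V, the ATP synthase, uses the proton gradient to make ATP. Complexes I, III, IV and V mix subunits of the nuclear and the mitochondrial genome, whereas complex II is wholly nuclear and also works in the tricarboxylic acid cycle. Several small subunits of complex IV have paralogs known for one tissue, such as Cox6a2 and Cox7a1 of heart and skeletal muscle and Cox6b2 of testis. Neurons are known for a high demand for ATP.

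Each group held 1 library, so the differences below carry no test and could not be checked against replicates. Total expected counts ran from 2147004 (labelled R1 ESC) to 5864673 (glia). Neuron held all 6 neuron markers at 10 TPM or more, and also 3 of 6 astrocyte markers, 3 of 6 microglia markers and 1 of 6 oligodendrocyte markers. Glia held all 6 astrocyte markers, all 6 microglia markers and all 6 markers of dividing cells, and also 3 of 6 neuron markers, 3 of 6 fibroblast markers and 1 of 6 oligodendrocyte markers. The neuron markers summed to 4972 TPM in neuron and 339 TPM in glia, and the astrocyte markers to 62.1 and 2645 TPM. The library labelled R1 ESC reached 10 TPM for 2 of 6 markers of naive pluripotent cells, Pou5f1 at 20.2 TPM and Nanog at 10.3 TPM, and was at 0 for Zfp42, Esrrb and Dppa5a. Cytosolic ribosomal protein genes took 38.0% of TPM in that library, 15.5% in neuron, 17.9% and 18.9% in the MEFs and 4.27% to 6.83% in the others. Counts came from genes of 1739 bases effective length on average there and 2488 bases in neuron, against 3021 to 3740 bases elsewhere. In tissue, fewer cells of a type and less RNA per cell cannot be told apart.

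The promoters of some members hold sites for nuclear respiratory factors, which are known for switching on genes of the respiratory chain. RefSeq promoter windows (GRCm38.p6) matched 67 of the 80 members, 2 of them by an older symbol. In the 250 bases before the start, the consensus motif of NRF1 stood on either strand in 13 of the 67 members (19.4%) and in 4.23% of all 27025 genes with a promoter. The ETS motif CCGGAAG, which the factor GABPA can bind, stood on either strand in 12 of the 67 members (17.9%) and in 7.83% of all genes. Of 4 other motifs searched, YY1 (AAGATGG) stood in 1.49% of the members and 5.18% of all genes, ERR (AAGGTCA) in 7.46% and 4.70%, the E-box (CACGTG) in 8.96% and 6.86%, and the core promoter motif TATAAA in 8.96% and 14.3%. The median GC content of the windows was 56.2% for the members and 52.4% for all promoters, and its part in these shares was not tested. The last 120 bases before the start are shown for members whose values are described below, in the gene's direction, with either motif in capitals, read as its reverse complement where it lies on the other strand; none of the capital runs belongs to both motifs. A match is a description of letters and not of binding.
Sdha (chr13:74350241-74350360, - strand): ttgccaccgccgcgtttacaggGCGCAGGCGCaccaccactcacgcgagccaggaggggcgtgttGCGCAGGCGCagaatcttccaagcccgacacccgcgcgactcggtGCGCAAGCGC
Sdhd (chr9:50603850-50603969, - strand): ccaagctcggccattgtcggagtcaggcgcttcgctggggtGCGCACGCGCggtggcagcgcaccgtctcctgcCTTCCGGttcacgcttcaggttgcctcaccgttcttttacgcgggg
Atp5g2 (chr15:102671048-102671167, - strand): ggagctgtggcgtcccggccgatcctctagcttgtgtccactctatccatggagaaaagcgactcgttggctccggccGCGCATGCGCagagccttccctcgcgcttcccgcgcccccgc
Atp5k (chr5:108434400-108434519, - strand): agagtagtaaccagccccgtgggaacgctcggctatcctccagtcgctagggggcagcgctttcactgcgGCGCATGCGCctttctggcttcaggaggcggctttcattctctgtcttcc
Cox6a1 (chr5:115348959-115349078, - strand): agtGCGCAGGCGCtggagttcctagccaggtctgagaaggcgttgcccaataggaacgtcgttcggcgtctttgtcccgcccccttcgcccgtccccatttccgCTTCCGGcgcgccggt
Cox6b1 (chr7:30626115-30626234, - strand): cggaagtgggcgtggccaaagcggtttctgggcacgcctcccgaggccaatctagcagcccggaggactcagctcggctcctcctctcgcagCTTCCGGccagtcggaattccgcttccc
Cox6b2 (chr7:4753095-4753214, - strand): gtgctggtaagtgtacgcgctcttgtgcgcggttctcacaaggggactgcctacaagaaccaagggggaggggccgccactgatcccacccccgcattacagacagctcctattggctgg
Sdha held 3 NRF1 matches in these bases, and Sdhd and Cox6a1 held 1 match of each motif. Atp5g2 and Atp5k each held 1 NRF1 match, Cox6b1 held 1 ETS match, and the window of its paralog Cox6b2 held neither. Both Atp5k and Atp5g2 hold the NRF1 letters, and between the library labelled R1 ESC and the MEFs Atp5k was among the 5 highest members and Atp5g2 was the lowest. The median log2 ratio of neuron over glia was 1.94 over the 13 members with the NRF1 motif and 1.44 over 52 tested members without it, and for the library labelled R1 ESC over the MEFs the medians were -0.01 over 13 and 0.15 over 50.

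The share of all TPM taken by the 80 genes was highest in neuron. It was 7.74% there, 3.98% in the library labelled R1 ESC, 3.57% in cerebellum, 2.99% in cortex, 2.98% in hippocampus, 2.50% in glia, 2.33% in OG2 MEF and 2.23% in ICR MEF. With the ribosomal protein genes taken out of the total, the shares became 9.16% in neuron, 6.42% for the library labelled R1 ESC, 3.14% to 3.73% in the brain regions, 2.68% in glia and 2.72% and 2.88% in the MEFs, so the order of neuron and that library did not change. Of the 80 members, 71 reached 10 TPM in all 8 libraries. Neuron was the highest library for 55 of these 71, cerebellum for 10, the library labelled R1 ESC for 5 and ICR MEF for 1. The library labelled R1 ESC was the lowest for 35 of them, followed by ICR MEF with 17 and glia with 10. It therefore stood high in the sum and low in the typical member: its median over the 71 was 245 TPM, below glia at 256 TPM and the MEFs at 259 and 269 TPM, while neuron had 713 TPM.

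**Figure D1:**
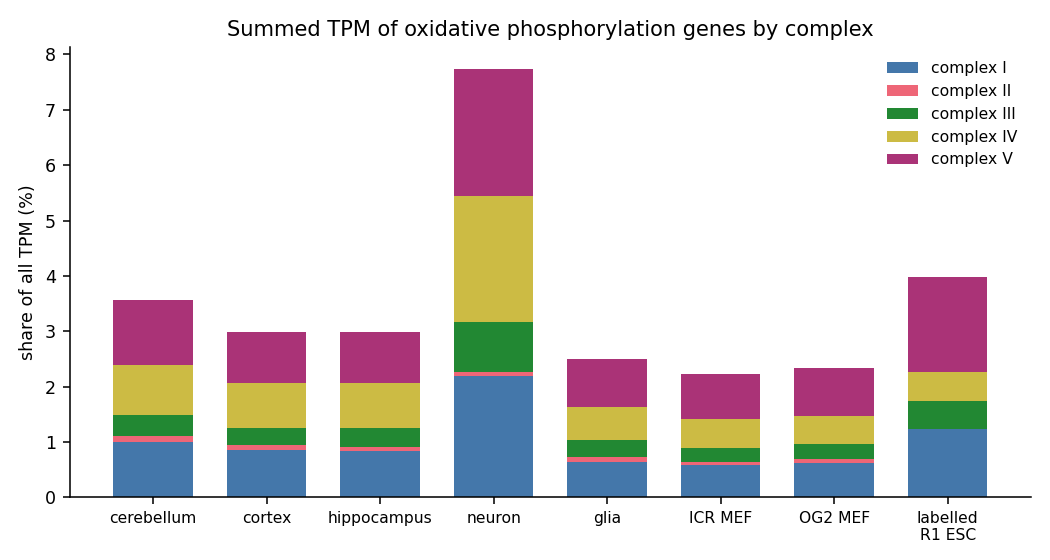
Share of all TPM (%, vertical axis) taken by the genes of complexes I to V in each of the 8 libraries, stacked by complex. Neuron is tallest at 7.74%, and complex II, 0.109% of TPM at most, is the thinnest band.

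Levels within complexes I, III, IV and V were more unequal in the library labelled R1 ESC than in the other 7. The spreads below cover members at 10 TPM or more in all 8 libraries. The SD of log2 TPM across the 71 members was 0.95 to 1.01 in 6 libraries, 1.32 in neuron, and for the library labelled R1 ESC it was 2.0. Among 34 genes of complex I the highest was 10.3 to 13.4 times the lowest in 7 libraries and 136 times in the library labelled R1 ESC, where Ndufa2 had 2658 TPM and Ndufb3 19.6 TPM. These 34 leave out Ndufs1, which was lower still in that library, at 7.33 TPM. Among 16 genes of complex V this spread was 5.34 to 14.7 in 7 libraries and 402 in that library, from Atp5g2 at 13.7 TPM to Atp5e at 5511 TPM. Among 10 genes of complex IV it was 2.62 to 4.70 in 7 libraries and 10.1 in the library labelled R1 ESC. For complex III it was 3.20 to 14.5 in 7 libraries and 88.1 in that library. For 3 genes of complex II it was 2.25 there, below 3.35 in neuron and 2.76 in hippocampus. These 3 leave out Sdhd, which had 8.19 TPM in the library labelled R1 ESC and 153 to 210 TPM elsewhere. With Sdhd, the 4 genes ran from 8.19 to 36.8 TPM there, a wider range in fold than in any other library. In neuron they ran from 101 to 337 TPM. In every library of the brain regions, glia and the MEFs, Ndufa11 was the lowest gene of complex I and Cox7b or Cox7a2 the lowest of these 10 genes of complex IV.

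**Figure D2:**
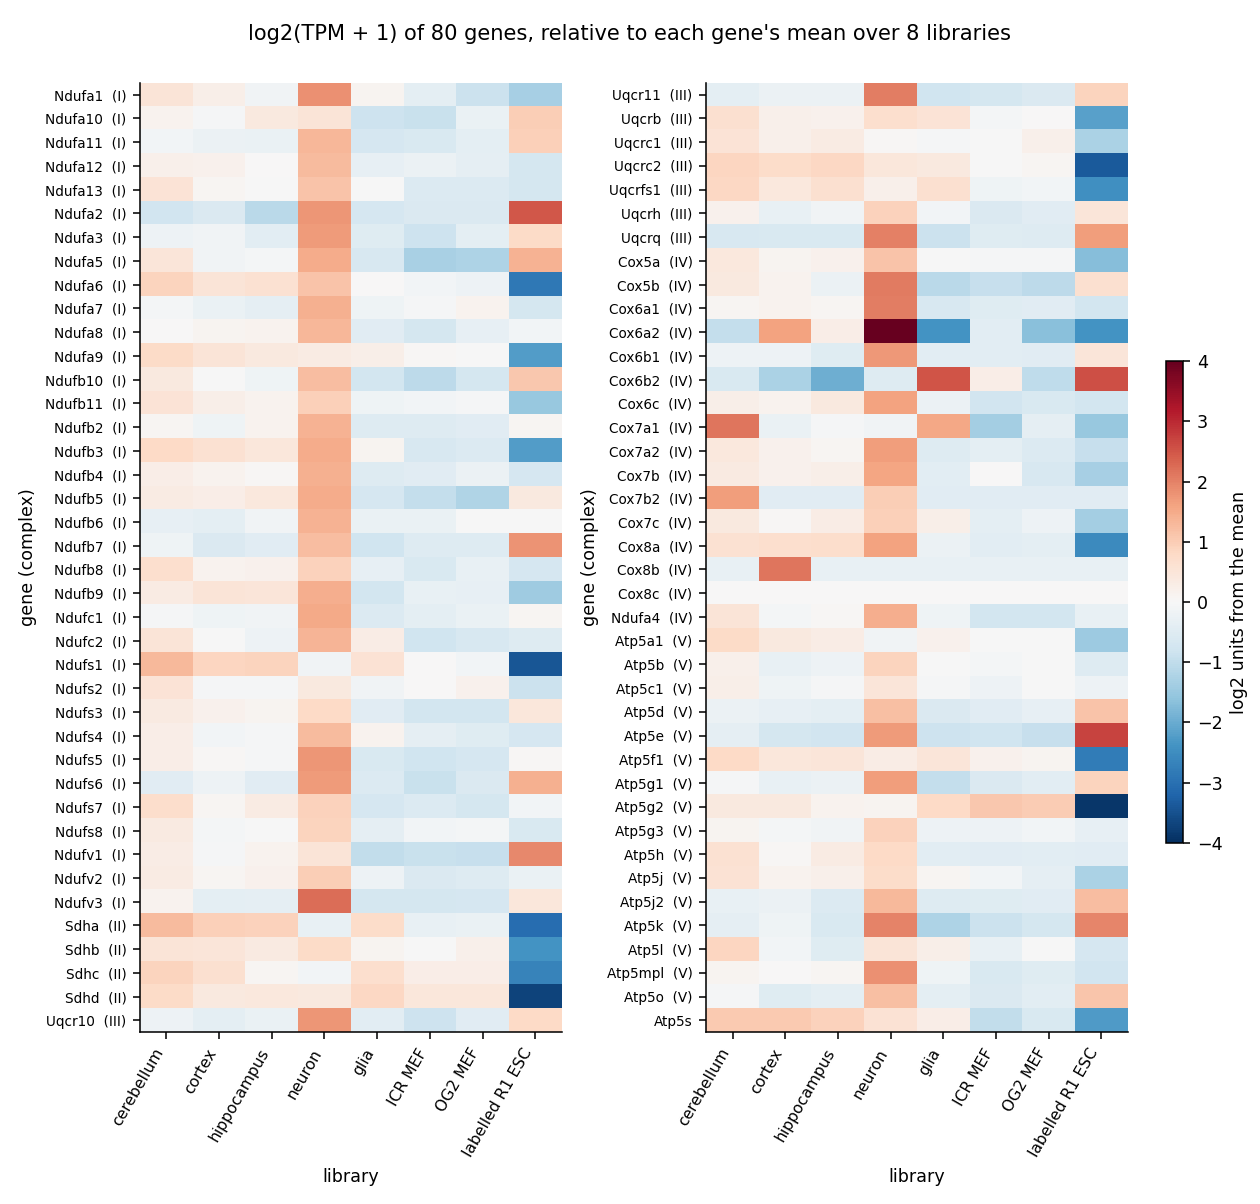
log2(TPM + 1) of the 80 genes (rows, with the complex in parentheses) in the 8 libraries (columns), as the difference from each gene's mean over the libraries; the colours stop at 4 either way, a limit that Cox6a2 alone passes, in neuron. Neuron is red for most genes of complexes I, III, IV and V and pale for complex II, and the library labelled R1 ESC holds both the reddest and the bluest cells of complexes I and V.

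Neuron was compared with glia to ask how far subunit RNA differs between the 2 brain cell preparations. A gene was tested if its mean was at least 10 TPM, and called where the higher side had at least 10 TPM in every library and lay at least 2-fold above the other side on TPM with 1 added. Of 77 members tested, 55 were higher in neuron, where 18.3% of all 9849 genes tested were called higher, and 3 were lower, where 46.5% of all genes were called lower. At 4-fold, 22 members were higher (9.59% of all genes) and 1 was lower (28.5%). The median log2 ratio was 1.58 over the members and -0.83 over all genes.

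Complex I held most of the calls, with 32 of 35 members higher in neuron and a median log2 ratio of 1.60. Its 28 accessory subunits, which surround the catalytic core, had a median of 1.84 and 27 were called. Ndufv3, an accessory subunit of the NADH-oxidising module, had 1564 TPM in neuron and 206 TPM in glia, 7.58-fold (95% counting interval 6.68 to 8.63). Intervals given here are exact (Clopper-Pearson) and cover counting error only. Of the 7 core subunits, 5 were called, with a median of 1.2. Ndufs1, the largest iron-sulfur subunit of the core, was not called: it had 215 TPM in cerebellum, 160 TPM in cortex, 164 TPM in hippocampus, 80.1 TPM in neuron, 132 TPM in glia, 87.5 TPM in ICR MEF, 81.0 TPM in OG2 MEF and 7.33 TPM in the library labelled R1 ESC. Neuron was thus among the lowest libraries for Ndufs1 on deposited TPM, and its log2 ratio over glia of -0.72 turned to 0.11 under TMM factors of the TPM and to 0.30 after removal of the GC trend, but was -1.37 as CPM and -2.02 at 1 length per gene, where Ndufs1 was called lower.

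Complex II, succinate dehydrogenase, did not share this pattern. None of its 4 genes was higher in neuron, and the median log2 ratio was -0.61, although it turned to 0.22 with TMM factors of the TPM, 0.15 without the length term and 0.28 with the GC trend removed. These 4 genes are long for members, with mean effective lengths of 971 to 2510 bases. The 17 tested members of 1000 bases or more, of all complexes, had a median of 0.08. The part of length in the levels of complex II was not tested. Sdha, the flavoprotein that oxidises succinate, was lower in neuron (137 TPM) than in glia (280 TPM), 2.05-fold (1.89 to 2.21), a call that was kept under 1 of 7 other scalings. Sdhb, the iron-sulfur subunit, had 337 TPM in neuron and 211 TPM in glia, and the membrane anchors Sdhc and Sdhd had 101 and 155 TPM in neuron and 173 and 210 TPM in glia, none of them called.

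In complex III, 4 of 8 members were higher in neuron. These were the small subunits Uqcr10, Uqcr11, Uqcrh and Uqcrq, of which Uqcrq had 1998 TPM in neuron and 270 TPM in glia, 7.4-fold (6.5 to 8.45). The core proteins Uqcrc1 and Uqcrc2 and the Rieske iron-sulfur protein Uqcrfs1 were not called, with 312, 267 and 167 TPM in neuron and 294, 256 and 230 TPM in glia.

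In complex IV, 10 of 13 tested members were higher in neuron and 2 were lower. Cox5b, a zinc-binding subunit, had 2422 TPM in neuron and 275 TPM in glia, 8.81-fold (7.97 to 9.77), and Cox6a1 was the member with the highest level in neuron, at 4075 TPM. In complex V, 9 of 16 members were higher and none lower. Atp5k, which encodes the small membrane subunit e, had 634 TPM in cerebellum, 724 TPM in cortex, 533 TPM in hippocampus, 3243 TPM in neuron, 343 TPM in glia, 445 TPM in ICR MEF, 497 TPM in OG2 MEF and 3152 TPM in the library labelled R1 ESC. Neuron and that library stood apart from the other 6 for Atp5k, and neuron over glia was 9.44-fold (8.08 to 11.1). The catalytic subunits of the F1 head were not called: Atp5a1 had 558 TPM in neuron and 693 TPM in glia, and Atp5b 3439 and 1806 TPM.

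Gene length moved with these differences. Over the 60 tested members with an effective length under 1000 bases the median log2 ratio of neuron over glia was 1.77, and over the 17 longer ones 0.08. The same medians over all genes were 0.68 and -1.06. Spearman's rho between the ratio and the effective length was -0.51 across 77 members and -0.36 across 9572 coding genes, which share their libraries and are not independent. With the trend over length taken out in 20 bins, 26 members were higher, where 26.2% of all genes were, and 5 lower, where 27.6% were. The members' median was then 0.69. Of the 55 members called higher, 26 were called under that setting, and 14 of these were of complex I. The part of transcript length in the difference was not tested, and 26 of the 58 calls were kept under each of 7 other scalings, among them Ndufv1, Ndufv3, Cox5b, Cox6a1, Atp5e and Atp5k.

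**Figure D3:**
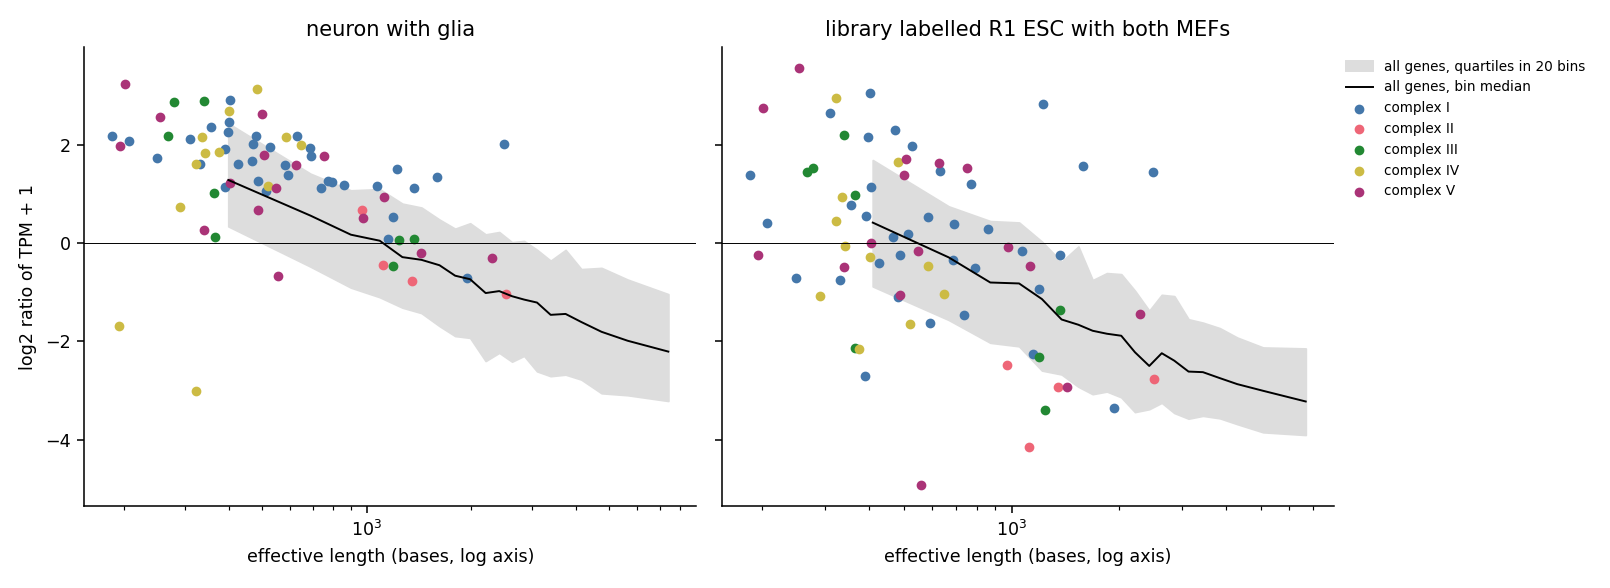
log2 ratio of TPM + 1 (vertical axis) against effective length in bases (log axis) for tested members, coloured by complex, over the median and quartiles of all tested genes in 20 length bins; Cox6a2 and Atp5s are not drawn. The ratio falls with length in both panels, and in neuron over glia the 60 members under 1000 bases have a median of 1.77 against 0.08 for the 17 longer ones.

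Several paralogs known for muscle or testis were read in these libraries. Cox6a2 (GRCm38, chr7:128205435-128206387), the heart and skeletal muscle form of subunit 6A, had 1.71 TPM in cerebellum, 15.1 TPM in cortex, 5.30 TPM in hippocampus, 321 TPM in neuron, 2.93 TPM in ICR MEF and 0.64 TPM in OG2 MEF, and was at 0 counts in glia and in the library labelled R1 ESC. Its 491 counts in neuron stood against 17 in cortex and at most 4 elsewhere. With a fixed floor of 3 counts set for a zero, neuron was at least 140-fold higher than glia, a bound given without an interval. Over cortex neuron was 21.3-fold higher (13.1 to 36.8). Cox6a2 took 7.31% of the summed TPM of Cox6a1 and Cox6a2 in neuron and at most 1.35% in any other library. The 8 muscle markers summed to 30.6 TPM in neuron and 51.4 TPM in cortex, against 6.91 TPM in glia. In neuron Actn2 had 12.1 TPM, Acta1 8.92 TPM, Tnni3 7.32 TPM, Tnnt2 0.94 TPM, Mb 0.81 TPM and Ckm 0.52 TPM, and Myh6 and Ckmt2 were at 0. The part of muscle or other cells in the Cox6a2 level was not tested. Of 6 markers of fast-spiking interneurons 4 reached 10 TPM in neuron, and Pvalb had 25.5 TPM there against 76.6 TPM in cortex and 1332 TPM in cerebellum.

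Cox6b2 (chr7:4751792-4753094), the testis form of subunit 6B, had 23.4 TPM in cerebellum, 14.8 TPM in cortex, 8.65 TPM in hippocampus, 25.5 TPM in neuron, 212 TPM in glia, 44.5 TPM in ICR MEF, 17.6 TPM in OG2 MEF and 223 TPM in the library labelled R1 ESC. Glia and that library stood above the other 6 with no overlap, on 182 and 232 counts against 3 to 47. It was the 1 member lower in neuron at 4-fold, with glia 8.31-fold above neuron (5.53 to 13.0) and 4.76-fold above ICR MEF (3.44 to 6.71). Of the counts of Cox6b1 and Cox6b2 together it held 25% in glia (21.9% to 28.3%) and 15.9% in the library labelled R1 ESC (14% to 17.8%). The male germ cell markers Prm1, Prm2, Tnp1, Tnp2 and Pgk2 were at 0 in all 8 libraries, and Ldhc had 0.36 TPM in cortex and 0 elsewhere.

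Cox7a1, the heart and skeletal muscle form of subunit 7A, had 51.7 TPM in cerebellum and 33.5 TPM in glia, against 3.15 to 10.4 TPM in the other 6 libraries. These levels rest on 24 and 16 counts, against 2 to 6. It was lower in neuron than in glia, 3.46-fold (1.28 to 10.8), a call kept under 5 of 7 other scalings. Cox7a2, the widely used form, had 249 to 486 TPM in 6 libraries, 1148 TPM in neuron and 191 TPM in the library labelled R1 ESC. The muscle form Cox8b was read with 2 counts in cortex and 0 elsewhere, the testis form Cox7b2 with 3 counts in cerebellum, 2 in neuron and 0 elsewhere, and the testis form Cox8c was at 0 in all 8 libraries.

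The c subunit, which forms the rotor ring of the ATP synthase, is encoded by Atp5g1, Atp5g2 and Atp5g3, whose mature proteins are identical. Atp5g2 (chr15:102662864-102672352) had 284 TPM in cerebellum, 283 TPM in cortex, 239 TPM in hippocampus, 234 TPM in neuron, 374 TPM in glia, 455 TPM in ICR MEF, 437 TPM in OG2 MEF and 13.7 TPM in the library labelled R1 ESC. That library lay far below the other 7. Atp5g2 gave 0.752% of the summed TPM of the 3 genes there, 6.2% in neuron and 16% to 29.0% elsewhere, and Atp5g1 gave 64.1% there, 53.3% in neuron and 23.1% to 35.6% elsewhere. Counts of Atp5g1 and Atp5g2 were not whole in any library, which marks reads that also fit other genes or transcripts, and their split is uncertain.

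**Figure D4:**
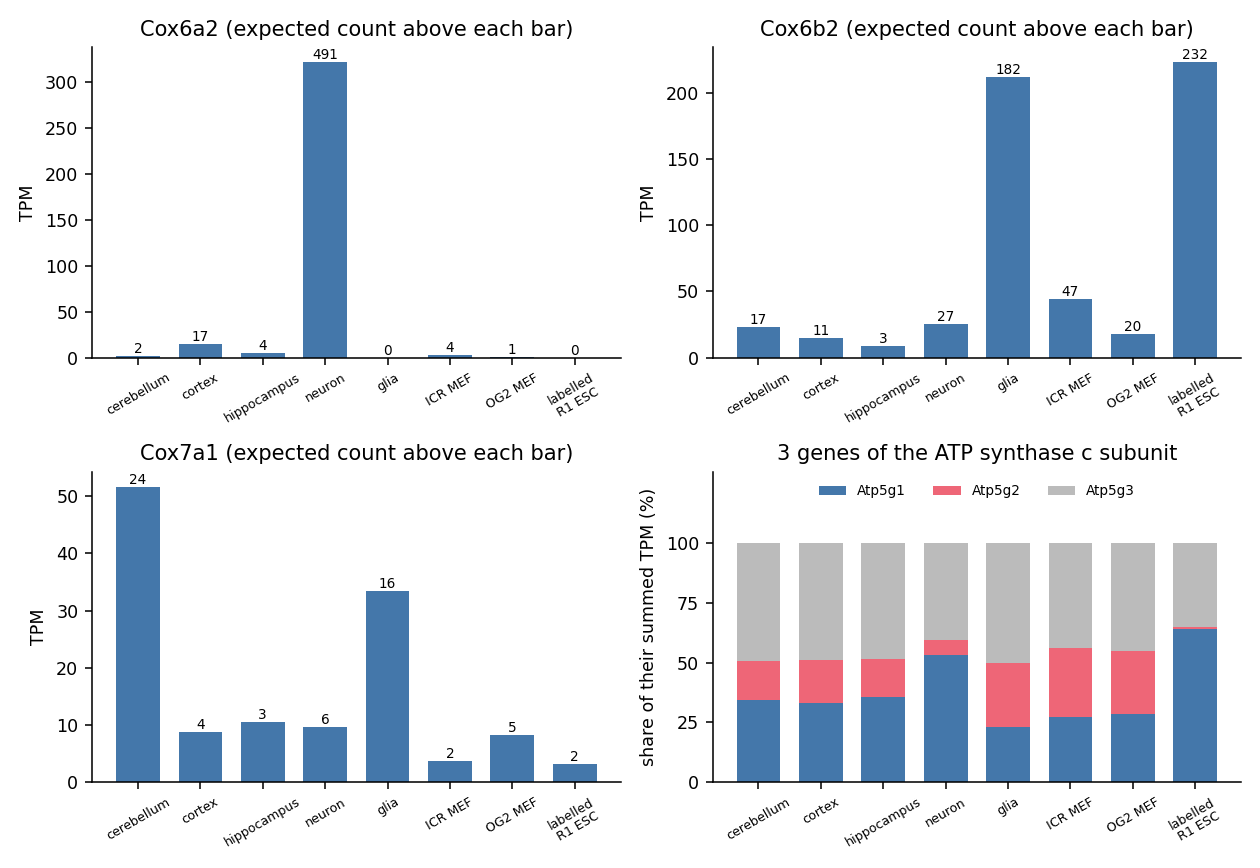
TPM of Cox6a2, Cox6b2 and Cox7a1 in the 8 libraries (bars, with the expected count above each) and the share (%) of Atp5g1, Atp5g2 and Atp5g3 in their summed TPM. Cox6a2 stands at 321 TPM in neuron, Cox6b2 at 212 and 223 TPM in glia and the library labelled R1 ESC, and Atp5g2 holds 0.752% of its family in the latter.

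The library labelled R1 ESC was set against both MEFs. Of 74 members tested, 23 were higher in it, where 7.83% of all 7740 genes tested were called higher, and 19 were lower, where 66.3% of all genes were called lower. At 4-fold, 8 were higher (3.39% of all genes) and 13 lower (47.6%). The median log2 ratio was -0.12 over the members and -1.99 over all genes, and the members' median turned positive under each of 7 other scalings, from 0.08 to 2.09.

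All 4 genes of complex II were lower, where 66.3% of all genes were. Among all genes of 1000 bases or more, 4740 of 6500 were lower, with a median log2 ratio of -2.26. Sdhd (chr9:50596357-50603812), a membrane anchor, had 199 TPM in cerebellum, 153 TPM in cortex, 158 TPM in hippocampus, 155 TPM in neuron, 210 TPM in glia, 163 TPM in ICR MEF, 162 TPM in OG2 MEF and 8.19 TPM in the library labelled R1 ESC. That library was the only one away from the range of 153 to 210 TPM, and OG2 MEF lay 19.8-fold above it (13.5 to 30.3). Sdha had 19.3 TPM there against 135 and 141 TPM in the MEFs, Sdhb 36.8 TPM against 194 and 226 TPM, and Sdhc 16.4 TPM against 131 and 130 TPM. The median of the 4 log2 ratios was -2.85 and stayed below 0 under the 7 other scalings, from -2.58 to -1.10, with 2 to 4 genes called.

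The core proteins Uqcrc1 and Uqcrc2 and the Rieske protein Uqcrfs1 were lower, at 126, 17.9 and 25.6 TPM against 302 and 351, 193 and 202, and 128 and 136 TPM in the MEFs. Uqcrb, a small subunit, was lower as well, at 71.8 TPM against 311 and 326 TPM. Uqcr10, Uqcr11 and Uqcrq were higher, and Uqcrq had 1576 TPM against 348 and 341 TPM, 4.53-fold (4.03 to 5.10) over the nearer MEF. The lower call was kept under 6 of 7 other scalings for Uqcrc2, 5 for Uqcrfs1 and 0 for Uqcrc1, whose log2 ratio of -1.36 turned to 0.44 with TMM factors of the TPM, while that of Uqcrfs1 turned to 0.14 with the GC trend removed.

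In complex I, 12 of 35 members were higher and 6 lower, with a median log2 ratio of 0.29. Ndufa2, an accessory subunit, had 2658 TPM in the library labelled R1 ESC against 321 TPM in each MEF, 8.27-fold (7.42 to 9.25). Ndufs1 (chr1:63143596-63176833) had 7.33 TPM against 87.5 and 81.0 TPM, 11.0-fold lower than OG2 MEF (7.23 to 17.8). In complex IV, 2 of 11 tested members were higher, Cox5b and Cox6b2, and 2 were lower, Cox5a and Cox8a. Cox8a, the widely used form of subunit 8, had 164 TPM there against 727 and 737 TPM in the MEFs.

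Complex V held both extremes of the 74 ratios. Atp5e, the epsilon subunit of the F1 stalk, had 670 TPM in cerebellum, 519 TPM in cortex, 500.1 TPM in hippocampus, 2807 TPM in neuron, 477 TPM in glia, 487 TPM in ICR MEF, 451 TPM in OG2 MEF and 5511 TPM in the library labelled R1 ESC. The library labelled R1 ESC was the highest and neuron came next, apart from the other 6. The log2 ratio of the former over the MEFs was 3.55, and the fold over ICR MEF was 11.3 (10.2 to 12.7). Atp5g2 had a log2 ratio of -4.93, and Atp5f1, the b subunit of the peripheral stalk, had 33.9 TPM against 269 and 261 TPM. In all, 6 of 16 members were higher and 3 lower. Of the 42 calls, 19 were kept under each of 7 other scalings, among them Ndufa2, Ndufs1, Sdhc, Sdhd, Uqcrq, Cox6b2, Atp5e, Atp5k and Atp5g2.

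The deposited effective lengths of some members also differed between libraries, which TPM divides by. For 17 of the 80 members the longest was more than 1.5 times the shortest. Atp5b had 1248 to 1493 bases in 6 libraries, 485 bases in neuron and 308 bases in the library labelled R1 ESC. Ndufv1, which carries the FMN and binds NADH, had 1215 to 1475 bases in 7 libraries and 344 bases in the library labelled R1 ESC. RSEM weights a gene's length by the transcripts it assigns reads to, and whether the transcripts themselves differ was not tested. With 1 length per gene, set to its mean over the libraries, the library labelled R1 ESC had 21 members higher and 22 lower. Of all genes, 7.64% were then called higher and 65.2% lower. Of the 23 called higher on deposited TPM, 19 were called again, and Atp5o, Cox5b, Ndufs3 and Ndufv1 were lost. Ndufv1 fell from a log2 ratio of 2.82 to 0.97, and Atp5b moved from -0.46 to -2.37. In neuron over glia all 55 members called higher were called again, Cox7c was added, and Ndufs1 was called lower with a log2 ratio of -2.02.

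Subunits that sit together in a complex in fixed numbers were therefore compared within each library on both scales. Ndufv1 and Ndufs1 belong to the NADH-oxidising module of complex I. Their TPM ratio was 1.10 in cerebellum, 1.17 and 1.29 in cortex and hippocampus, 3.47 in neuron (3.0 to 4.02), 0.739 in glia, 1.18 and 1.24 in ICR MEF and OG2 MEF, and 99.1 in the library labelled R1 ESC (65.0 to 159). At 1 length per gene the ratio was 7.4 in neuron (6.40 to 8.59), 52.0 for the library labelled R1 ESC (34.1 to 83.5) and 0.707 to 1.23 in the other 6. Neuron and that library stood apart from the rest on either scale, the latter on 22 counts of Ndufs1.

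In the F1 part of complex V, the ratio of Atp5e to Atp5a1 was 0.651 to 0.814 in 6 libraries, 5.03 in neuron (4.77 to 5.30) and 24.9 for the library labelled R1 ESC (23.4 to 26.4), and at 1 length per gene 0.625 to 0.823, 5.07 and 26.8. The ratio of the catalytic beta subunit to the alpha subunit, Atp5b to Atp5a1, depended on the lengths. It was 1.89 to 2.98 in 6 libraries, 6.16 in neuron and 5.80 for the library labelled R1 ESC on deposited TPM, but 2.44 to 3.56, 2.64 and 1.56 at 1 length per gene. In complex III, Uqcrc1 over Uqcrc2 was 7.06 for the library labelled R1 ESC (5.08 to 10.1) and 1.08 to 1.73 in the other 7, and 13.2 against 0.943 to 2.11 at 1 length per gene. Sdhb over Sdha in complex II was 0.696 to 0.855 in the brain regions and glia, 2.47 in neuron (2.26 to 2.70), 1.44 and 1.60 in the MEFs and 1.90 in the library labelled R1 ESC (1.45 to 2.50). The interval of that library overlapped those of both MEFs on deposited TPM, but at 1 length per gene its ratio of 2.34 (1.78 to 3.07) lay above their 1.40 (1.3 to 1.56) and 1.48 (1.35 to 1.62).

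**Figure D5:**
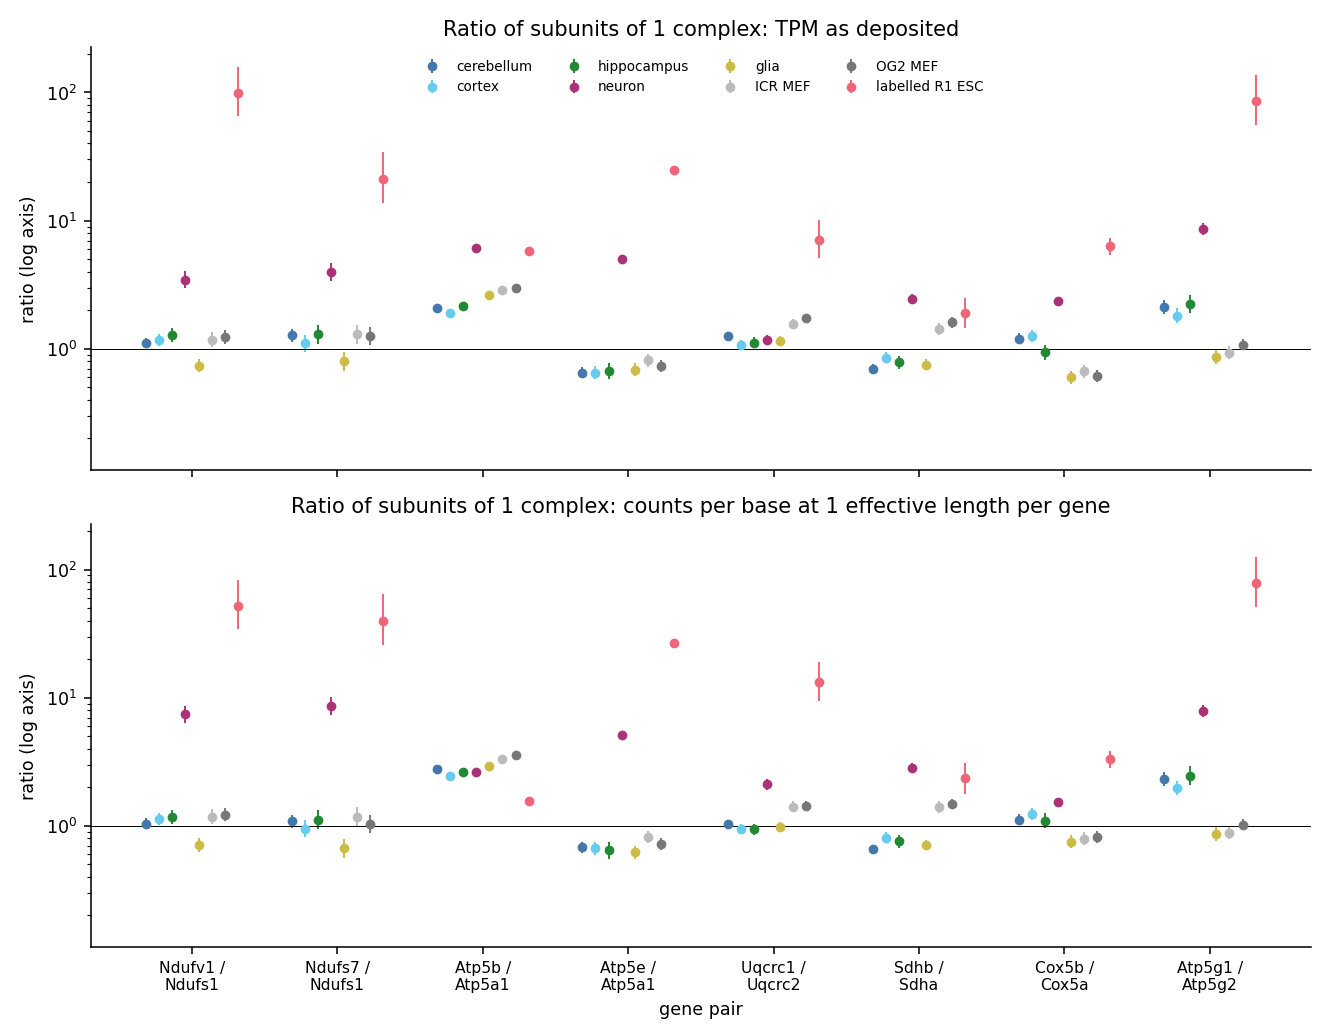
Ratio (log axis) of 8 pairs of genes of the same complex in each library with 95% counting intervals, on deposited TPM (upper panel) and at 1 effective length per gene (lower panel). Neuron and the library labelled R1 ESC lie above the rest for Ndufv1 over Ndufs1 and for Atp5e over Atp5a1 in both panels, but not for Atp5b over Atp5a1 in the lower one.

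Neuron over glia and the library labelled R1 ESC over the MEFs share no library, and their log2 ratios could be set side by side. Across 74 members, which share length and base composition between the comparisons, Spearman's rho was 0.66, and across 7143 genes 0.57. Of the 23 members higher in the library labelled R1 ESC, 22 were also higher in neuron, the exception being Cox6b2. These 22 were 95.7% of the former list and 40.7% of the 54 members of this set higher in neuron. Over all genes the overlap was 49.3% of the former list and 27.3% of the latter, and 899 of the 7143 were higher in neuron. Under 1000 bases it was 95% and 38.8% for the members and 65.8% and 35.0% for all genes. How far the members' larger share of calls in neuron raises their overlap was not tested. Among the members under 1000 bases with a GC content at or above the members' median of 52.4%, 26 of 31 were higher in neuron and 14 of 29 in the library labelled R1 ESC. Among all genes of that kind these shares were 46.1% and 26.3%. Among members of 1000 bases or more and a lower GC content, 1 of 9 was higher in neuron, none of 8 was higher in the library labelled R1 ESC and 7 were lower. Among all genes of that kind 7.65% were higher in neuron, and the library labelled R1 ESC had 3.18% higher and 81.8% lower. These counts of the members lay near that background. The lower calls in neuron did not: 1 of the 9 members was lower, where 62.1% of all genes of that kind were. The median log2 ratios of neuron over glia were -0.20 and -1.49.

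The brain regions were compared with the MEFs, tissue against cultured fibroblasts. Of 76 members tested, 6 were higher in all 3 regions, where 30.5% of all 10831 genes tested were called higher, and none was lower, where 11.0% of all genes were. The 6 were Atp5s, Cox8a, Ndufa5, Ndufb3, Ndufb5 and Sdha. Sdha had 407 TPM in cerebellum, 327 TPM in cortex and 320.1 TPM in hippocampus against 135 and 141 TPM in the MEFs, 2.28-fold (2.11 to 2.46) between the nearest libraries. Ndufb5, an accessory subunit of complex I, had 319, 303 and 336 TPM against 130 and 109 TPM. The members' median log2 ratio was 0.48, below the 0.68 of all genes, and it fell to -0.18 under TMM factors of the TPM and to -0.04 after removal of the GC trend. None of the 6 calls was kept under each of 7 other scalings, and at 4-fold no member was called in either direction, against 16.1% and 5.61% of all genes.

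Cerebellum was compared with cortex and hippocampus. Of 76 members, 1 was higher (6.02% of all genes) and none lower (7.28%), although 65 of the 76 log2 ratios were above 0, among them all 16 of complex V, where 6266 of 10779 over all genes were, and the median was 0.28 against 0.11 for all genes. At 4-fold the counts were again 1 higher (1.73% of all genes) and none lower (3.05%). The 1 call was Cox7a1, on 24 counts in cerebellum against 4 in cortex and 3 in hippocampus, 4.96-fold over hippocampus (1.51 to 25.7). As CPM, without the length term, these counts lay below the floor for testing. That setting therefore could not show whether the call depends on length. Atp5l, the g subunit of the ATP synthase, came next with 771 TPM against 399 and 308 TPM and was not called. Its counts were not whole in any library.

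The 2 MEF libraries differed least. Of 74 members, 1 was higher in ICR MEF (1.57% of all genes) and none in OG2 MEF (0.36%), and the SD of the members' log2 ratios was 0.25 against 0.40 for all genes. At 4-fold none was higher (0.276% of all genes) or lower (0.0961%). The call was Cox6b2, with 44.5 TPM in ICR MEF and 17.6 TPM in OG2 MEF, 2.53-fold (1.47 to 4.50) on 47 and 20 counts. As CPM, without the length term, these counts lay below the floor for a call. The dependence of this call on length could therefore not be read from that setting.

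Genes that work beside the members were read from other lists. Their counts for neuron with glia stand against 18.3% of all genes called higher and 46.5% called lower. Of the subunits outside the naming rule, Cox4i1, the usual form of subunit 4, had 2616 TPM in neuron and 767 TPM in glia and was called higher, as were Cyc1 and Ndufab1. Ndufa4l2, a paralog of Ndufa4, had 108 TPM in the library labelled R1 ESC and 0.92 to 6.61 TPM in the other 7. Of 13 enzymes of the tricarboxylic acid cycle, which feeds the chain with NADH and succinate, 1 was higher in neuron than in glia, Mdh2 with 727 and 363 TPM, and 2 were lower, Dld and Suclg2. In the library labelled R1 ESC none of the 13 was higher than in the MEFs (7.83% of all genes) and 10 were lower (66.3%). Among assembly factors, 4 of 13 tested for complex I and 7 of 22 for the other complexes were higher in neuron, with 2 and 3 lower. Of 9 tested regulators of mitochondrial biogenesis none was higher in neuron and 6 were lower, among them Nrf1 with 9.53 and 24.3 TPM, Gabpa with 3.28 and 56.9 TPM and Tfam with 14.1 and 58.6 TPM in neuron and glia. Of 74 mitochondrial ribosomal protein genes, 28 were higher in neuron and 3 lower. Of 8 tested genes for electron carriage and ADP and ATP exchange, 6 were lower in the library labelled R1 ESC, where 66.3% of all genes were. These were the carriers Slc25a3, Slc25a4 and Slc25a5 and the porins Vdac1, Vdac2 and Vdac3, while Cycs, which encodes cytochrome c, and Atpif1, an inhibitor of the ATP synthase, were not called. Slc25a5, an ADP/ATP carrier, had 38.6 TPM there against 516 and 512 TPM in the MEFs.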

How the data were processed

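Per the labels' protocols, TruSeq libraries were made from 1 ug of Trizol-extracted total RNA. Bowtie, RSEM and the build mm10 are named in the submitters' processing notes; versions, annotation and strandedness were not given in the sources used here. Expected counts per gene, TPM values and effective lengths in bases were deposited by the authors for each library, per the file headers. Coordinates were taken from GENCODE M21 (GRCm38) and promoters from RefSeq (GRCm38.p6). Symbols were matched for 29202 of 29713 gene identifiers. The members and lists, and the rule for named genes, were chosen with earlier results of these data known. Named genes were the 5 highest and 5 lowest members of each comparison, the paralogs and a set of core subunits; a few others are named as examples after their values were seen.

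Ratios are differences of mean log2(TPM + 1); the call rule stands in the report. No test was run, with 1 library per group. As 10 other ways of processing, the ratios were recomputed with 0.1 or 5 TPM added, a lower floor of 1 TPM, scaling by TMM factors of the counts or the TPM (edgeR 4.0.16, R 4.3.3), TPM without ribosomal protein genes, CPM from the expected counts, removal of the length trend, a 4-fold threshold, and genes with whole counts (within 0.005) alone; libraries were also left out in turn. Removal of the GC trend and 1 effective length per gene (28995 genes of at least 50 bases) were added after seeing the data. The 7 other scalings named in the report are the 5 of these that rescale or detrend TPM and the 2 added. The calls were tested on simulated Poisson counts for 29713 genes, drawn for both sides from the profile and effective lengths of 1 library. Of 100 genes set 4-fold apart 100 were called in neuron with glia, and 34 unchanged genes were called. These counts held no variation between libraries beyond counting and no trend with length or GC content. They therefore give no error rate for the real comparison. Counts that were not whole in some library, found for 20 members, mark reads shared with other genes or transcripts. Work was done in Python 3.11.15 with pandas 2.3.3, numpy 2.4.6, scipy 1.17.1 and matplotlib 3.10.9.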

Additional observations from a re-analysis of the deposited data

How the results depend on the processing

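No paired analysis was possible because each group held 1 library. Percentages in parentheses are the shares of all genes called in the same direction under the same setting. For neuron with glia, 55 members higher and 3 lower (18.3% and 46.5%) became 26 and 5 with the length trend removed (26.2% and 27.6%). At 4-fold they became 22 and 1 (9.59% and 28.5%), and 1 was lower with TMM factors of the TPM (28.6%). For the brain regions with the MEFs, 6 members were higher and 0 lower (30.5% and 11.0%). With TMM factors of the counts, 1 was higher (25.4%). With TMM factors of the TPM, 0 were higher and 1 lower (19.1% and 19%). Without ribosomal protein genes, 2 were higher (26.6%). As CPM, 1 was higher and 1 lower (24.5% and 16%), and likewise with the GC trend removed (19.6% and 18.2%). At 4-fold, 0 were higher (16.1%). Leaving out libraries gave 6 to 7 higher (31.5% to 35.1%) and 0 lower (10.4% to 13.6%). For cerebellum, 1 higher (6.02%) became 2 with 1 lower at a floor of 1 TPM (7.07% and 8.81%). As CPM it was 0 (6.09%), where Cox7a1 fell below the floor. Leaving out a library gave 1 to 3 higher (8.7% to 9.48%), the 3 without cortex, and 0 lower (8.81% to 9.32%). For the library labelled R1 ESC, 23 higher and 19 lower became 49 and 6 with TMM factors of the TPM and 50 and 6 with the GC trend removed, and 38 were higher as CPM and 8 at 4-fold; leaving out a MEF library gave 23 to 24 higher and 21 lower. For ICR MEF with OG2 MEF, 1 higher (1.57%) became 2 at a floor of 1 TPM (3.94%) and 0 at 4-fold (0.276%). As CPM it was also 0 (0.887%), where Cox6b2 fell below the floor. The other settings stayed within 1.5 times of the reported count, and the causes were not tested. TMM factors of the TPM moved the median log2 ratio of all genes from -0.83 to 0.15 for neuron with glia. It moved from -1.99 to -0.15 for the library labelled R1 ESC and from 0.68 to -0.03 for the brain regions. Each median is over the genes tested under its own setting. Values below about 3 counts, as for Cox7b2 and Cox8b, allow no comparison at this depth.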
